A study of Homo sapiens with 2 samples.

Results

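The genes examined here were 10 negative feedback genes and transcriptional outputs of the ERK pathway, namely the phosphatase genes DUSP4, DUSP5 and DUSP6, the Sprouty genes SPRY1, SPRY2 and SPRY4, the Sprouty-related genes SPRED1 and SPRED2, and the ETS factor genes ETV4 and ETV5. They were chosen by name, and all 10 were found among the 58735 genes of the deposited table. RNA was sequenced from SF-539, an established human glioblastoma (GBM) cell line. SF-539-shControl cells carried the lentiviral construct pGIPZ-CTRL and SF-539-shFKBP9 cells a lentiviral shRNA against FKBP9, a prolyl isomerase of the endoplasmic reticulum, and both were grown in DMEM with serum and kept as stable puromycin-selected clones. The labels do not say whether a library came from 1 clone or from many, nor which of the shRNAs against FKBP9 was used. There was 1 library per condition, so no test between the conditions was possible and the differences have no replicate check.

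ERK, the last kinase of the RAS, RAF and MEK cascade, is switched on by growth factor receptors and switches on genes that in turn limit it. DUSP phosphatases remove the activating phosphates from ERK and related kinases, Sprouty and SPRED proteins act higher up at the level of receptors, RAS and RAF, and ETV4 and ETV5 of the PEA3 subfamily carry the signal to the genome. The mRNA levels of these genes are commonly read as a measure of ERK output, and in GBM the pathway is often driven by receptor tyrosine kinases.

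None of the 10 genes differed by 2-fold between the libraries. SPRY2 and SPRED1 were 26.7% and 25.8% higher in FPKM in shFKBP9 than in shControl, SPRED2 was 11.7% higher, and for these 3 genes the difference was larger than counting error. The same held for 17.2% of all genes at 1 FPKM or more in the higher direction and for 20.8% in the lower, and for 0 of the 10 genes once a coefficient of variation of 0.1 between libraries was assumed. The DUSP and ETV genes were within counting error of equal levels, with differences between -10.7% for ETV4 and 5.94% for ETV5. So were the other Sprouty genes, SPRY4 with a difference of 26.7% and SPRY1 with -10.1%. FPKM denotes fragments per kilobase of gene length, scaled to the size of the library, and the log2 ratio is that of shFKBP9 to shControl with 0.1 added to both FPKM values. Since the RNA came from bulk cultures, fewer cells expressing a gene and less RNA per cell cannot be told apart.

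The deposited FPKM values could be turned back into fragments, of which 18116873 lay on genes in shControl and 17158514 in shFKBP9. The 95% intervals given below are exact intervals of these fragments, except the approximate (Woolf) intervals for pairs of genes, and cover counting error only. For FKBP9, the shRNA target, 49.8 FPKM in shControl stood against 4.68 in the knockdown, so that 9.39% was left. Of the glial and progenitor markers, VIM was abundant and NES was above 1 FPKM in both libraries, whereas OLIG2, GFAP, SOX2 and S100B were under 1 FPKM and AQP4 had no fragment in either. The labels call the cells epithelial, and of the epithelial markers KRT8 was at 1.28 and 1.09 FPKM while EPCAM, KRT18 and CDH1 were under 1 FPKM. The 4 keratinocyte markers had 9 fragments in all in shControl and 62 in shFKBP9, and the 7 blood and plasma cell markers 16 and 52, with PTPRC, CD3E and MS4A1 at 0 in both. The plasma cell genes IGHG1, with 0 and 33 fragments, and IGKC, with 0 and 8, were the markers of that list with more fragments in shFKBP9. Their part in the results was not tested.

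The Sprouty genes encode membrane-associated inhibitors of receptor tyrosine kinase signalling that are induced by ERK. SPRY2 (ENSG00000136158) lies on the minus strand of chromosome 13 of hg38 from 80335976 to 80340951, and the canonical transcript of GENCODE release 44 has 2 exons. It was the most abundant Sprouty gene, with 512 fragments (9.31 FPKM) in shControl and 615 fragments (11.8 FPKM) in shFKBP9. The shFKBP9 library was the higher one, with a log2 ratio of 0.34 (95% interval 0.17 to 0.51). At an equal FPKM, 485 fragments would have been counted in shFKBP9.

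SPRY4 (ENSG00000187678, chromosome 5, 142310427 to 142326455, minus strand) was near 1 FPKM, with 114 fragments (0.959 FPKM) in shControl and 137 (1.22 FPKM) in shFKBP9. Its log2 ratio of 0.31 was close to that of SPRY2, but with fewer fragments the interval ran from -0.03 to 0.71 and included 0. SPRY4 reached 1 FPKM only in shFKBP9, the library in which it was higher. SPRY1 (ENSG00000164056, chromosome 4, 123396795 to 123403760, plus strand) was the least abundant of the 10 genes and stayed under 1 FPKM in both libraries. It had 61 fragments (0.850 FPKM) in shControl and 52 (0.764 FPKM) in shFKBP9, a log2 ratio of -0.14 with the widest interval of the set, -0.72 to 0.40. A difference of the size seen for SPRY2 was therefore not detectable for SPRY1 at this depth. The 3 Sprouty genes together had 11.1 FPKM in shControl and 13.8 in shFKBP9, and SPRY2 accounted for nearly all of the gain.

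The SPRED genes encode Sprouty-related proteins that bring the RAS inactivator neurofibromin to the membrane. SPRED1 (ENSG00000166068) lies on the plus strand of chromosome 15 from 38252326 to 38357249 with 7 exons in its canonical transcript. The shControl library gave 979 fragments (6.55 FPKM) and the shFKBP9 library 1168 fragments (8.24 FPKM). SPRED1 was thus higher in shFKBP9 by 0.33 on the log2 scale (95% interval 0.21 to 0.46), and with 2147 fragments in both libraries together it was the best-counted of the 10 genes.

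SPRED2 (ENSG00000198369, chromosome 2, 65310851 to 65432637, minus strand, 6 exons) was the most abundant of the 10 genes in both libraries. It was counted with 1031 fragments (11.0 FPKM) in shControl and 1092 fragments (12.3 FPKM) in shFKBP9. The level was again higher in shFKBP9, with a log2 ratio of 0.16 (95% interval 0.04 to 0.28). Both SPRED genes summed to 17.6 FPKM in shControl and 20.6 in shFKBP9.

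The promoters of the genes that were higher in shFKBP9 beyond counting error are printed next, with that of DUSP6, whose level was within counting error of equal, as a contrast. Each window runs from 250 bases before to 50 bases after the RefSeq start site nearest to the 5′ end of the deposited gene, in build GRCh38.p14 and on the gene's strand. Capitals mark the ETS core CCGGAA and the GC box GGGCGG on either strand. The windows are chr13:80341077-80341376 (minus strand) for SPRY2, chr15:38252586-38252885 (plus strand) for SPRED1, chr2:65432550-65432849 (minus strand) for SPRED2 and chr12:89352452-89352751 (minus strand) for DUSP6.
SPRY2: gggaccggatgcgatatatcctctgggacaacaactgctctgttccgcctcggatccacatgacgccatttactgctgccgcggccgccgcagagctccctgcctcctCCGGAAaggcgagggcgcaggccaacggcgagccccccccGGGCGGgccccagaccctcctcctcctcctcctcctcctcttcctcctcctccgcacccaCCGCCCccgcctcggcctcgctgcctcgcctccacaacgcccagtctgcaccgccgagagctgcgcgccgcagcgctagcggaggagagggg
SPRED1: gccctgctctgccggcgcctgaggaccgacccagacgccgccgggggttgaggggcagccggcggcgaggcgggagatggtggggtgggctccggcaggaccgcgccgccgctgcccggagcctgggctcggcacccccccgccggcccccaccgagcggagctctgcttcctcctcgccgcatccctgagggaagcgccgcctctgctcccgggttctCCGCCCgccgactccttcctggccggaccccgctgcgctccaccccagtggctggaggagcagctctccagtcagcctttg
SPRED2: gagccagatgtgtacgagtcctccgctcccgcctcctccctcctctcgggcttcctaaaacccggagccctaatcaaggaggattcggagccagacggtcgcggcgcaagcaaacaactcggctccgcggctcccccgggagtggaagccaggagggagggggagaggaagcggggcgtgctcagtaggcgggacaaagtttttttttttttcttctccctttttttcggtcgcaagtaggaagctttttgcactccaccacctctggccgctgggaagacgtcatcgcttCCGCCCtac
DUSP6: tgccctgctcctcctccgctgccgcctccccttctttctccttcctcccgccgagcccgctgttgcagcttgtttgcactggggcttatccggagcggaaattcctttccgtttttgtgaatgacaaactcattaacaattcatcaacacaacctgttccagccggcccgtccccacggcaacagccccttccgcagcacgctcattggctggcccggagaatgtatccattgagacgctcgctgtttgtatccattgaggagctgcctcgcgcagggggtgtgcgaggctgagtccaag

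RefSeq promoters were matched for 6 of the 10 genes (DUSP6, SPRY1, SPRY2, SPRY4, SPRED1 and SPRED2) and not for DUSP4, DUSP5, ETV4 and ETV5. In these windows 6 motifs were searched on both strands: the ETS core CCGGAA, the octamers TGAATGAA and TGAATGGA bound by the repressor Capicua, which start with the same letters, the cAMP response element TGACGTCA, the AP-1 site TGACTCA and the GC box GGGCGG. Among 35116 promoter windows of 300 bases, the ETS core was present in 17.2%, the octamers in 1.65% and 1.03%, the cAMP response element in 1.85%, the AP-1 site in 4.95% and the GC box in 45.0%. Of the 6 windows only that of SPRY2 held an ETS core, 1 copy, and there were 2 GC boxes in SPRY2 and 1 each in SPRY4, SPRED1 and SPRED2. The other 4 motifs were in none of the 6 windows. The share of G and C was 76.3% in the window of SPRED1, 71.0% in SPRY2, 65.0% in SPRY4, 60.0% in SPRED2, 58.3% in DUSP6 and 47.7% in SPRY1, beside a median of 58.7% over all promoters. These letters describe the windows and do not show that a factor binds there.

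The DUSP genes encode dual-specificity phosphatases that remove the activating phosphates of MAP kinases. DUSP6, a cytoplasmic phosphatase with a preference for ERK (ENSG00000139318, chromosome 12, 89347232 to 89353271, minus strand, 3 exons), had 301 fragments (3.59 FPKM) in shControl and 263 (3.31 FPKM) in shFKBP9. DUSP5, a nuclear phosphatase that also prefers ERK (ENSG00000138166, chromosome 10, 110497838 to 110511544, plus strand, 4 exons), had 241 (5.09 FPKM) and 231 (5.15 FPKM). For both the levels of the libraries lay within counting error of each other, with log2 ratios of -0.11 (95% interval -0.36 to 0.13) for DUSP6 and 0.02 (-0.25 to 0.28) for DUSP5. The sign of DUSP5 changed to -0.003 when FPKM was rescaled to TPM.

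DUSP4, a nuclear phosphatase that acts on ERK and other MAP kinases (ENSG00000120875, chromosome 8, 29333064 to 29350668, minus strand, 4 exons), had 335 fragments (2.55 FPKM) in shControl and 312 (2.50 FPKM) in shFKBP9. Its log2 ratio was -0.02 (95% interval -0.25 to 0.20), so a difference was not detectable at this depth. The 3 phosphatase genes summed to 11.2 FPKM in shControl and 11.0 in shFKBP9, nearly the same total as the Sprouty genes in shControl.

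ETV4 and ETV5 encode ETS factors whose transcription follows ERK activity. ETV4 (ENSG00000175832, chromosome 17, 43527844 to 43579620, minus strand, 13 exons) had 514 fragments (7.87 FPKM) in shControl and 435 (7.02 FPKM) in shFKBP9. It was lower in shFKBP9, with a log2 ratio of -0.16, but the 95% interval from -0.35 to 0.02 still included 0. ETV5 (ENSG00000244405, chromosome 3, 186046308 to 186110318, minus strand, 13 exons) had 446 (4.25 FPKM) and 448 (4.50 FPKM), a log2 ratio of 0.08 (-0.11 to 0.28). The sum over both genes was 12.1 FPKM in shControl and 11.5 in shFKBP9.

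Other genes overlap ETV4 and ETV5, and the library kit named in the labels does not mark strand. DHX8, an RNA helicase gene on the other strand, shares 68 exon bases with ETV4 in GENCODE release 44, and its log2 ratio was -0.21 (95% interval -0.31 to -0.11) with 1769 and 1451 fragments. DGKG, a diacylglycerol kinase gene on the same strand, shares 164 exon bases with ETV5 and had 175 and 224 fragments, a log2 ratio of 0.39 (0.14 to 0.73). With the fragments of the overlapping gene added, the log2 ratio was -0.20 for ETV4 and 0.19 for ETV5. The overlapping genes had the same signs as ETV4 and ETV5, so the sums could not have another sign, and the value of ETV5 alone was 0.08. The genes overlapping the other members had at most 7 fragments in a library.

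**Figure D1:**
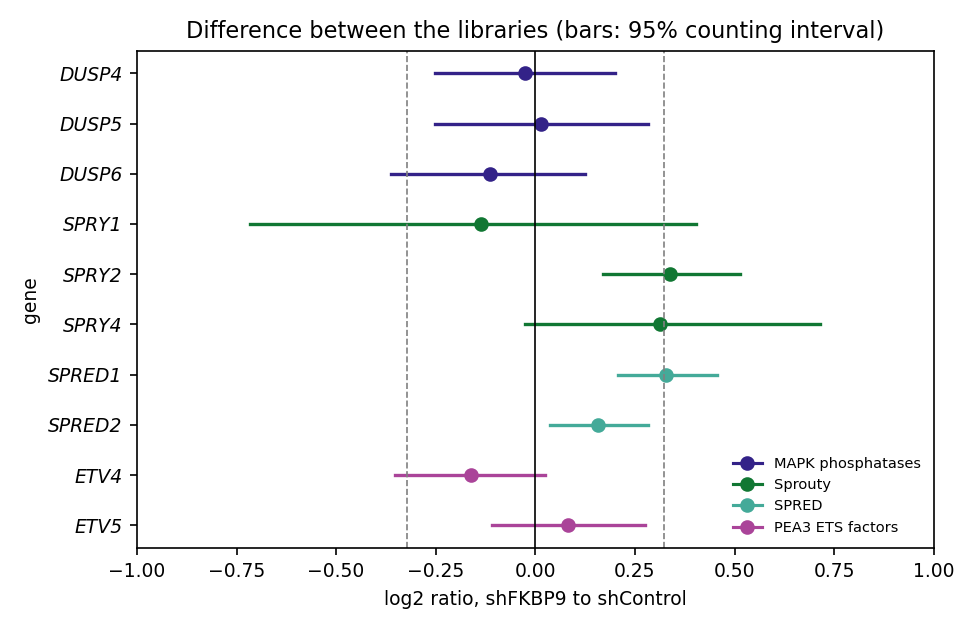
Log2 ratio of shFKBP9 to shControl for each ERK feedback gene, with exact 95% counting intervals as bars, coloured by family; dashed lines mark a log2 ratio of 0.32 on either side of 0. Only the bars of SPRY2, SPRED1 and SPRED2 lie wholly above 0, and no bar lies wholly below it.

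By level per length, the order in shControl was SPRED2, SPRY2, ETV4, SPRED1, DUSP5, ETV5, DUSP6, DUSP4, SPRY4 and SPRY1. Neighbours whose Poisson intervals overlapped were SPRY2 and ETV4, DUSP5 and ETV5, ETV5 and DUSP6, and SPRY4 and SPRY1. In shFKBP9 the order was the same but for SPRED1, at 8.24 FPKM, which came before ETV4, at 7.02. The neighbours with overlapping intervals were then SPRED2 and SPRY2, at 12.3 and 11.8 FPKM, and DUSP5 and ETV5. The order rests on the deposited gene lengths, and with the exon lengths of GENCODE release 44 DUSP6, whose length is then 3859 in place of 4632 bases, stood before ETV5 in shControl.

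The levels of the 10 genes were moderate or low among expressed genes. Of the 12741 genes that reached 1 FPKM in a library, 31.6% were above SPRED2 in shControl, 36.1% above SPRY2, 62.9% above DUSP6 and 72.5% above DUSP4. SPRY2 held a higher place in shFKBP9, where 29.7% of genes were above it. SPRED1 moved likewise, with 46.1% of genes above it in shControl and 39.1% in shFKBP9.

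Taking a gene relative to another in the same library removes the scaling between libraries. For SPRY2 relative to ETV4, the ratio of FPKM was 1.18 in shControl and 1.68 in shFKBP9, a log2 difference of 0.51 (95% interval 0.26 to 0.76). SPRED1 was below ETV4 in shControl, at a ratio of 0.832, and above it in shFKBP9, at 1.17, a log2 difference of 0.50 (0.27 to 0.72). Between the most abundant gene of each family the difference was also off 0 for SPRED2 relative to ETV4, at 0.32 (0.10 to 0.55), and for SPRY2 relative to DUSP5, at 0.33 (0.02 to 0.64). Of these 6 pairs of most abundant genes, 3 had an interval off 0.

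Of all 45 pairs, which share genes and are not independent, 14 (31.1%) had an interval off 0. Over all pairs of genes with as many fragments as the members the share was 33.2%, so the number of pairs off 0 was near that of the background. All 14 were among the 25 pairs of a Sprouty or SPRED gene with a DUSP or ETV gene, with the Sprouty or SPRED gene relatively higher in shFKBP9. The other 20 pairs, including all 8 pairs within a family, gave 0. Of the 14, the higher gene was SPRY2, SPRED1 or SPRED2 in 12, and no pair with SPRY1 was off 0. This grouping of pairs was made after the values were seen, and with an assumed variation between libraries of 0.1 (coefficient of variation) 0 of the 45 pairs remained off 0.

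Of the 10 members, 9 reached 1 FPKM in a library, SPRY4 through shFKBP9 alone, and 0 of them were past 2-fold, while 2.02% of all genes at that minimum were past 2-fold higher and 2.19% lower. All 10 members are protein-coding, and among the 10346 protein-coding genes at that minimum the shares past 2-fold were 0.213% higher and 0.193% lower. A smaller limit was set at 25% higher or 20% lower, a log2 ratio of 0.32 in either direction. Past it were SPRY2 and SPRED1, both higher, and 0 members lower, against 9.83% of all genes higher and 11.1% lower, and 5.87% and 6.94% of protein-coding genes. Just outside lay SPRY4, at a log2 ratio of 0.31, and just inside SPRED1, at 0.33, on either side of the limit. The limit was applied to the log2 ratio, which includes the addition to both FPKM values. Without the addition SPRY4 was 26.7% higher in FPKM in shFKBP9 and so past 25%, as were SPRY2 at 26.7% and SPRED1 at 25.8%. The number of members past this limit was 0 with 1 added to FPKM, 1 with TPM, and 3 with 0.01 added to FPKM or with median-ratio scaling.

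The counting interval lay above 0 for 3 of the 10 genes and below 0 for 0 of them, against 17.2% of all genes above and 20.8% below, and 19.7% and 24.0% of protein-coding genes. Among the 7202 genes with between 113 and 2147 fragments in both libraries, the range of the members, 15.5% lay above 0 and 18.0% below, and 7.21% and 8.75% were past the limit of 0.32 higher and lower. Counts this small cannot set the 10 genes apart from these shares. The median log2 ratio over the 10 genes was 0.05, beside -0.02 over all genes at the minimum. With the assumed variation of 0.1 in each library, 0 of the 10 intervals were off 0.

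Among genes of the same families outside the 10, 7 of 10 reached 1 FPKM and 1 of these was past 0.32. This was ETV1, the remaining PEA3 factor, with 5.47 FPKM in shControl and 7.70 in shFKBP9 from 953 and 1271 fragments. Its log2 ratio of 0.48 (95% interval 0.37 to 0.61) was above those of ETV4 and ETV5. DUSP10, a phosphatase of p38 and JNK, was the other gene with an interval above 0, at 0.24 (0.05 to 0.43). DUSP1, an immediate early phosphatase and the most abundant DUSP of the list, was at 36.2 and 35.5 FPKM, a log2 ratio of -0.03 (-0.14 to 0.08). The median of the list was -0.02. SPRY3, the remaining Sprouty gene, was under 1 FPKM in both libraries and had 101 and 69 fragments, a log2 ratio of -0.40 (-0.94 to -0.02), which lay below 0 and on the other side from SPRY2 and SPRY4.

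Among genes of the core of the cascade, 16 of 17 genes reached 1 FPKM and 0 were past a log2 ratio of 0.32 in either direction, with a median log2 ratio of -0.02. The interval lay above 0 for 4 genes, among them the adaptor SHC1 at 0.06, NRAS at 0.07 and the phosphatase PTPN11 at 0.16. It lay below 0 for MAPK3, which encodes ERK1, at -0.31 (95% interval -0.41 to -0.21), and for ARAF at -0.30 (-0.44 to -0.17). Over all genes at the minimum the shares were 17.2% above 0 and 20.8% below. The MEK2 gene MAP2K2 was at 46.1 FPKM in shControl and 44.3 in shFKBP9, with a log2 ratio of -0.06 (-0.12 to 0.01).

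The 13 other ERK target genes, all of which reached 1 FPKM, were spread to both sides, with 2 past 0.32 higher, 2 lower and a median log2 ratio of 0.05. The interval lay above 0 for 6 of them and below 0 for 3, beside 17.2% and 20.8% of all genes at the minimum. Such counts depend on depth, as FOSL1, with 4266 and 4577 fragments, was off 0 at a log2 ratio of 0.18. HBEGF, a ligand of the EGF receptor, went from 4.01 FPKM in shControl to 6.39 in shFKBP9, a log2 ratio of 0.66 (95% interval 0.42 to 0.93), and CCND1, the gene of cyclin D1, from 50.0 to 67.7, a ratio of 0.44 (0.38 to 0.49). EGR1, an immediate early factor, was lower, at 11.8 and 8.95 FPKM and a ratio of -0.40 (-0.58 to -0.23). FOS, another immediate early gene, was at 1.13 FPKM from 66 fragments and 0.720 from 40, a ratio of -0.58 (-1.25 to -0.06), and reached 1 FPKM only in shControl, where it was higher.

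The other negative regulators showed little difference, with 8 of 9 genes at 1 FPKM, 0 past 0.32 and a median log2 ratio of 0.02. Their most abundant genes, PEBP1 and ERRFI1, which encode inhibitors of RAF and of the EGF receptor, were at 0.01 (95% interval -0.06 to 0.08) and 0.02 (-0.04 to 0.07). RASA1, a RAS inactivator, lay above 0 at 0.24 and CBL, a ubiquitin ligase of receptors, below 0 at -0.23.

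Among 11 ETS factors and genes of the Capicua repressor, all at 1 FPKM, 1 was past 0.32 higher and 0 lower, and the median log2 ratio was -0.08. ELK3, a ternary complex factor, had 10.3 FPKM in shControl and 15.1 in shFKBP9, a log2 ratio of 0.55 (95% interval 0.43 to 0.68). The interval was below 0 for 6 genes and above 0 for 3, ELK3, ETS2 and ETV3. Over all genes at the minimum it was below 0 for 20.8% and above 0 for 17.2%. CIC, which encodes Capicua, a repressor of ETV4, ETV5 and DUSP genes that ERK inactivates, was at -0.30 (-0.37 to -0.23), and its partner ATXN1L at -0.23 (-0.34 to -0.13), whereas the related partner ATXN1 was at 0.09 (-0.03 to 0.21). These 3 genes were picked out after their values were seen.

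**Figure D2:**
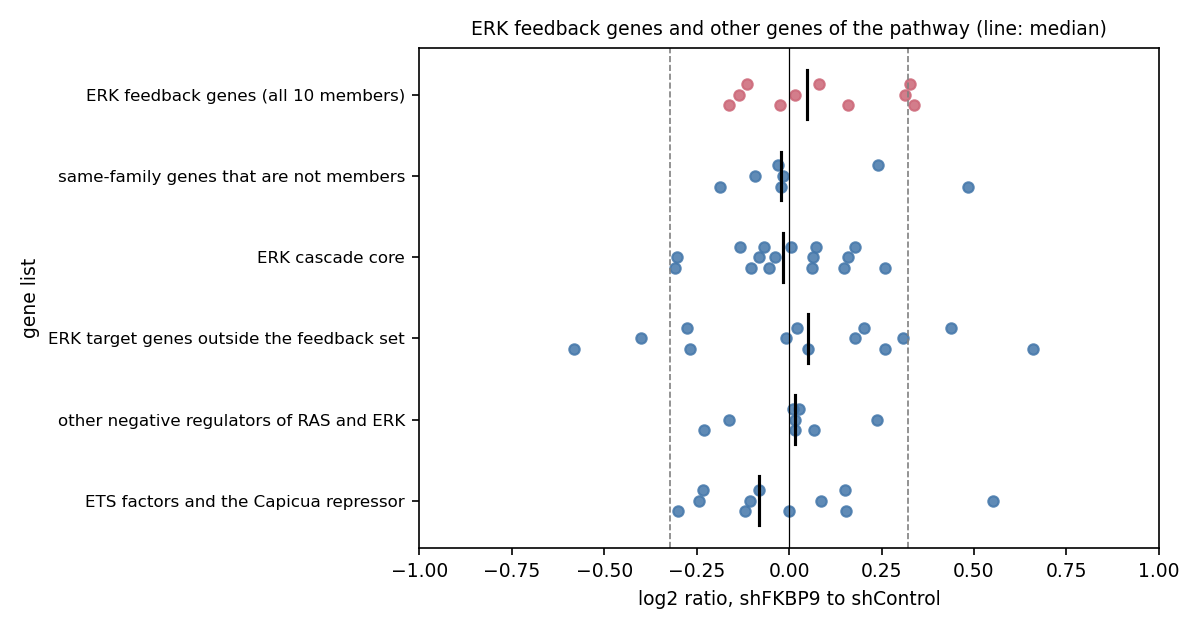
Log2 ratio of shFKBP9 to shControl for the 10 ERK feedback genes and, at 1 FPKM or more in a library, for the genes of 5 lists of the pathway; each point is a gene, the thick line is the median and dashed lines mark a log2 ratio of 0.32 on either side of 0. The medians lie between -0.08 and 0.05, and the ERK target genes outside the feedback set spread the widest, from -0.58 to 0.66.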

How the data were processed

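RNA-Seq was run on 1 library each of shControl and shFKBP9 cells of SF-539. The authors removed reads with adapters, undetermined bases or low quality, aligned the rest to hg38 with HISAT2 2.0.5 and counted them per gene with featureCounts 1.5.0-p3, and the deposited values are FPKM. The table held 0 further columns of values per library. FPKM times gene length was a whole multiple of 1 step per library for 100% of values (tolerance 1e-06 fragments), which gave the fragments. A fragment on 1 kilobase equals 0.0552 FPKM in shControl and 0.0582 FPKM in shFKBP9.

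Log2 ratios were computed with 0.1 added to FPKM. Genes were counted past 2-fold, or past a log2 ratio of 0.32 (25% higher or 20% lower), at 1 FPKM in either library. Ratios have exact Clopper-Pearson intervals, levels exact Poisson intervals and pairs of genes Woolf intervals, all at 95%, without the addition and without a p-value. Fragment recovery, intervals and fold counts were tested on simulated data. Members and lists were chosen with earlier results of these data known, and the lists of ERBB genes and of atypical DUSPs after values were seen. Named were all members, FKBP9, list genes past 0.32 with an interval off 0 or else the 2 most abundant, and overlapping genes with at least 10 fragments; further genes of the lists were named after their values were seen. Values of some genes of the core cascade are not reported here. Promoters are RefSeq's and exons GENCODE release 44, not the authors' annotation. Alternatives concerned the addition, the scaling, the minimum and the interval. The software was scipy 1.17.1 and numpy 2.4.6 for intervals, pandas 2.3.3 for tables and matplotlib 3.10.9 for plots, under Python 3.11.15.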

Additional observations from a re-analysis of the deposited data

How the results depend on the processing

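With 1 library per condition no library could be left out, and no paired analysis was possible because the conditions share no replicates. Of 42 log2 ratios of single members under the alternatives, all 42 lay within the counting interval of the reported value. The alternatives reuse the same fragments, so this was largely fixed beforehand and is no check of the ratios. SPRY4, for example, came to 0.18 with 1 added to FPKM and still lay within its interval. The median over the members, 0.05, ran from 0.03 with TPM to 0.06 with median-ratio scaling. The scale between the libraries moved by -0.02 (log2) with TPM and 0.02 with median-ratio scaling. With TPM the 0.1 added also weighs differently, and SPRY4 came to 0.316 and SPRY1 to -0.17. In every alternative tried 0 members were past 2-fold. The 2 members past a log2 ratio of 0.32 became 0 with 1 added to FPKM and 1 with TPM, and 3 with 0.01 added to FPKM and with median-ratio scaling. The 3 members with an interval off 0 became 0 with an assumed coefficient of variation of 0.1, and 2, SPRY2 and SPRED1, with a 99% interval. Over all genes, the 537 past 2-fold became 291 with 1 added to FPKM, 4015 with no minimum, 81 with a minimum of 1 FPKM required of both libraries and 42 among protein-coding genes, and the 2664 past 0.32 became 1736, 11684, 1754 and 1325. Depth limits SPRY1 and SPRY4 most, at 113 and 251 fragments in both libraries.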

Other observations

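The lists in this section were chosen after values had been seen. The ligands and receptors of the ERBB family, which feed into ERK, include HBEGF, whose values are given above. HBEGF was the only gene of this list at 1 FPKM with an interval above 0. EREG, the gene of epiregulin, had 10.2 FPKM in shControl and 7.59 in shFKBP9, a log2 ratio of -0.42 (95% interval -0.56 to -0.28), and the receptor gene ERBB2 had 1.97 and 1.46 FPKM, a ratio of -0.41 (-0.67 to -0.20). EGFR was at 12.6 and 12.7 FPKM, a ratio of 0.02 (-0.06 to 0.09), and AREG had no fragment in either library. Of the 10 genes, 5 reached 1 FPKM. Of these, 1 was past a log2 ratio of 0.32 higher, HBEGF, which is counted among the ERK target genes too, and 2 were past it lower. The shares over all genes at the minimum were 9.83% higher and 11.1% lower.

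Of the 9 atypical DUSP genes, 8 reached 1 FPKM, with a median log2 ratio of 0.05 and 0 genes past 0.32. They encode smaller phosphatases that are not classed with the MAP kinase phosphatases. The most abundant was DUSP3 at 35.2 FPKM in shControl and 33.0 in shFKBP9, a ratio of -0.09 (95% interval -0.16 to -0.02).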
